A study of Mus musculus with 6 samples.

Results

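Stretches of chromatin that carried H3K4me1 inside very long protein-coding genes, away from the genes' start sites and coding exons, were examined in mouse whisker pads at embryonic day 12. H3K4me1 is histone H3 with 1 methyl group on lysine 4, a mark of active and poised enhancers. The assay was CUT&Tag. An antibody to the mark tethers a transposase, which cuts out the DNA nearby for sequencing. Peaks of the 3 H3K4me1 samples were merged wherever they overlapped by at least 1 bp. A merged region was a member when it lay on chromosomes 1 to 19, held a peak in all 3 samples, was shorter than 15000 bp, did not overlap a protein-coding start site with 1 kb on each side, and had its midpoint outside coding exons in a protein-coding gene of at least 200 kb. This gave 1971 members of 8840 regions with a peak in all 3 samples, or 22.3%. The presence and width of peaks entered this choice, and the signal values of the peaks did not.

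All samples were freshly isolated cells of whole whisker pads, dissociated to single cells, from mice of strain B6/J2 without any treatment named in the labels. Replicates of H3K4me1 are numbered 1, 2 and 3 as their titles number the pads, and 3 IgG samples complete the series but were not analysed here. The source name of H3K4me1 replicates 2 and 3 reads adult kidney while their titles read whisker pad, and the titles were followed. The pad holds several tissues, and a stronger mark in all cells cannot be told apart from a mark in more of the cells. The labels do not say whether the pads came from separate embryos, so the spread between replicates may be partly technical. The deposited lists carry no read numbers, so the depth behind each value is unknown. Total signal in peaks on chromosomes 1 to 19 was 815323716, 977633794 and 736904846 pileup units in replicates 1, 2 and 3.

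Enhancers are stretches of DNA that bind transcription factors and act on promoters that can lie far away, and many of them sit in introns. An enhancer within a gene need not act on that gene, and the introns of large genes next to developmental regulators are well known for holding enhancers of the neighbour. Genes of this size are mostly intron. They include genes for synapses, ion channels and neuronal adhesion, which are used in mature neurons, and genes for transcription factors, guidance cues and receptors, which pattern embryonic tissues such as the whisker pad.

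Sequences at the centre of members are shown first for the regions that come up below. Each is the stretch of the GRCm38 reference (build mm10) around the mean position of the highest pileup of the 3 replicates, on the plus strand. The regions are centred in introns of the principal transcript of the host, except that of Auts2, which is centred in none of them. Capitals mark matches on either strand to any of the 14 short motifs described below, and a match is a description of letters only. The first set holds 2 of the genes with the most members, for which the 3 highest pileups lay close together, at chr5:132489371-132489571 in Auts2 (167 bp apart at most) and chr11:35416424-35416624 in Slit3 (216 bp).
Auts2: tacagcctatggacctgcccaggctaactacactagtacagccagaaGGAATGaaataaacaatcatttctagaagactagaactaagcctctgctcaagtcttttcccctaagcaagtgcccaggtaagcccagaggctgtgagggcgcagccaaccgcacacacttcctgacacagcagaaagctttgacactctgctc
Slit3: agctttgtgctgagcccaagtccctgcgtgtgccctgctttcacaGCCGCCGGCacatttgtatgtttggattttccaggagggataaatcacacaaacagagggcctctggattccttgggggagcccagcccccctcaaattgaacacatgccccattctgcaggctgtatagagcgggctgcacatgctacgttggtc

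The second set shows 3 members with high signal ranks whose highest pileup fell at nearly the same base in every replicate and outside any exon, chosen after their values were seen. They lie at chr7:112826046-112826246 in Tead1, chr17:86271391-86271591 in Prkce and chr12:99284757-99284957 in Foxn3. The highest pileups of the 3 replicates were 0 bp apart in Foxn3 and 1 bp apart in Tead1 and Prkce. The window of Tead1 holds 2 matches to the TEAD motif, and that of Foxn3 a match to the E-box CAGCTG.
Tead1: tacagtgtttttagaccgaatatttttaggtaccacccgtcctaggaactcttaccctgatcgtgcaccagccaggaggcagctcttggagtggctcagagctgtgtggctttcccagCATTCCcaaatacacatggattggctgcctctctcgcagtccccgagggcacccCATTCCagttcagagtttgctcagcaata
Prkce: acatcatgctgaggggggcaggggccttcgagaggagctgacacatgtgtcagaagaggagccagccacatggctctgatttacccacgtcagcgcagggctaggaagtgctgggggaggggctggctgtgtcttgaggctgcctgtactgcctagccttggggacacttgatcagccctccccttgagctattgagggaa
Foxn3: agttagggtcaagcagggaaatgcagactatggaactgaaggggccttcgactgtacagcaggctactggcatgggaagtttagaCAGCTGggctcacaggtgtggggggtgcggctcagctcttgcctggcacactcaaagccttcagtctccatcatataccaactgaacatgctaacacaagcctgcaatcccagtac

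The third set, also chosen after the values were seen, shows members whose nearest coding start belonged to a neighbour of the host gene. They lie at chr11:85643581-85643781 in Bcas3, 191 kb from the start of Tbx2, at chr8:91576412-91576612 in Fto, 226 kb from Irx3, at chr13:31992391-31992591 in Gmds, 186 kb from Foxc1, and at chr8:115188218-115188418 in Wwox, 519 kb from Maf. The 3 highest pileups were 30 bp apart in Bcas3, 412 bp in Fto, 14 bp in Gmds and 42 bp in Wwox. The Gmds window holds a match to the NFI motif, the Wwox window matches to AP-1 and TEAD, and the other two hold none.
Bcas3: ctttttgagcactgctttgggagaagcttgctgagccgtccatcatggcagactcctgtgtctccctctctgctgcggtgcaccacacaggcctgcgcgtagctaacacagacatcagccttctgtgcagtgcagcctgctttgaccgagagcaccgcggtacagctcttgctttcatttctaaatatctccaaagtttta
Fto: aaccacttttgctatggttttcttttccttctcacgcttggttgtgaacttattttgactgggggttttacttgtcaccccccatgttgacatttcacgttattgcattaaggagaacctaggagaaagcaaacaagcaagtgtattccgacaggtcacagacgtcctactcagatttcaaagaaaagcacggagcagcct
Gmds: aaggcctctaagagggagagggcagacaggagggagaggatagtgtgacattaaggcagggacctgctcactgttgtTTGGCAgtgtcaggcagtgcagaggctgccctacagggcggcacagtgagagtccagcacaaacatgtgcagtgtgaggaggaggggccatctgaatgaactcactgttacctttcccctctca
Wwox: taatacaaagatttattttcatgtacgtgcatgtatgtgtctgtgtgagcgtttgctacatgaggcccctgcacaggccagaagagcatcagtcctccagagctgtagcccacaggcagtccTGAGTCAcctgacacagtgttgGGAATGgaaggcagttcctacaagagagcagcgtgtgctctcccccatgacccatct

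Of 953 protein-coding genes of at least 200 kb, 4.58% of the 20807 on these chromosomes, 474 held a member. This share, 49.7%, is the background against which gene groups are read below. A further 479 genes held none, and 287 (30.1%) had no eligible peak in any replicate. A replicate's own peak is eligible when it meets the rule on length, start sites, coding exons and midpoint. Peak counts and densities of genes below are of eligible peaks only. A gene without one can thus hold peaks at a start site or a coding exon. Among the hosts, 133 genes held 1 member, 196 held 2 to 4, 106 held 5 to 9 and 39 held 10 or more. Those 39 genes were 4.09% of the very long genes and held 573 members, or 29.1%. Members were thus unevenly spread over genes of this size, with many genes that held none and few crowded ones. Each replicate on its own had an eligible peak in 582, 517 and 626 of the genes, 483 of them in every replicate.

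Among the gene lists compared, genes for regulators of transcription carried the most members for their length. The lists were written with earlier results of these data known, so differences between them are descriptions and not independent evidence. Of 108 regulators written down 63 were very long, against 93 of 94 genes of synapses, channels and neuronal adhesion. The list of regulators held genes of transcription factors and of their cofactors and chromatin partners. Of its 63 very long genes, 56 (88.9%) held a member, against 49.7% of all very long genes, and 1 had no eligible peak in any replicate. Counting each replicate's own peaks, the density was 26.3, 19.7 and 24.9 peaks per Mb of sequence outside coding exons and start sites, in the order of the replicates. The mean was 23.7 ± 3.51 (SD, n = 3). Over all very long genes it was 8.82, 6.52 and 8.30 peaks per Mb, a mean of 7.88 ± 1.21 (SD, n = 3), with sequence that genes share counted once for each gene. In every replicate the regulators lay above this value.

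The listed genes of synapses, ion channels and neuronal adhesion stood at the other end. This list is not complete, as Tanc1, Cachd1 and Erc2, described below as genes of synapses or channels, were not on it. Tanc1 held 14 members and Cachd1 12, so the values of the list depend on which genes were written down. Of its 93 very long genes, 22 (23.7%) held a member and 51 had no eligible peak in any replicate. Their density was 1.59, 1.19 and 1.47 peaks per Mb, a mean of 1.42 ± 0.204 (SD, n = 3). Regulators exceeded them by 22.2 ± 3.31 peaks per Mb (SD of the 3 differences), with the same sign in all 3 replicates. The exact two-sided sign-flip permutation test gave p = 0.25, the smallest value that 3 replicates allow, so no such comparison can pass 0.05. The test is also not independent of the choice of genes, because the lists were written with earlier results of these data known. The synaptic genes were longer, with a median of 724 kb against 346 kb, and density fell with gene length. Among genes of 200 to 500 kb, 46 of 52 regulators (88.5%) and 7 of 28 synaptic genes (25%) held a member, against 378 of 735 of all genes (51.4%). Their densities there were 27.1 ± 4.08 and 3.40 ± 1.22 peaks per Mb (SD, n = 3). Above 500 kb, 10 of 11 regulators and 15 of 65 synaptic genes did, with 16.9 ± 2.50 and 1.09 ± 0.270 peaks per Mb, against 96 of 218 of all genes with 4.79 ± 0.836.

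Genes of signalling, axon guidance and extracellular matrix lay between them. A member was found in 37 of 63 (58.7%), and the densities were 11.4, 8.34 and 11.9 peaks per Mb, a mean of 10.5 ± 1.93 (SD, n = 3). These values include the record of Fgfr2, which encloses 29 other coding genes and held 31 of the 243 members of the list. Of 12 large genes known from common fragile sites, 7 held a member (58.3%), at 4.10 ± 1.43 peaks per Mb. All 12 were longer than 500 kb, and of all genes above that length 44.0% held a member, at 4.79 ± 0.836 peaks per Mb. Skeletal muscle genes, a type of cell that could be taken along with the pad, had 1 host among 6 genes and 2.31 ± 0.657 peaks per Mb. The 5 very long genes of the kidney list, looked at because of the kidney source name, had 4 hosts (80.0%), with 6.47, 5.18 and 9.71 peaks per Mb, a mean of 7.12 ± 2.33 (SD, n = 3). Replicate 1, whose source name is whisker pad, lay between the other two. Bicc1, Cubn, Slc8a1 and Pkhd1 held 4, 2, 1 and 1 members, and Ptpro, of the podocyte, had no eligible peak. The part of kidney tissue in these values was not tested.

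**Figure D1:**
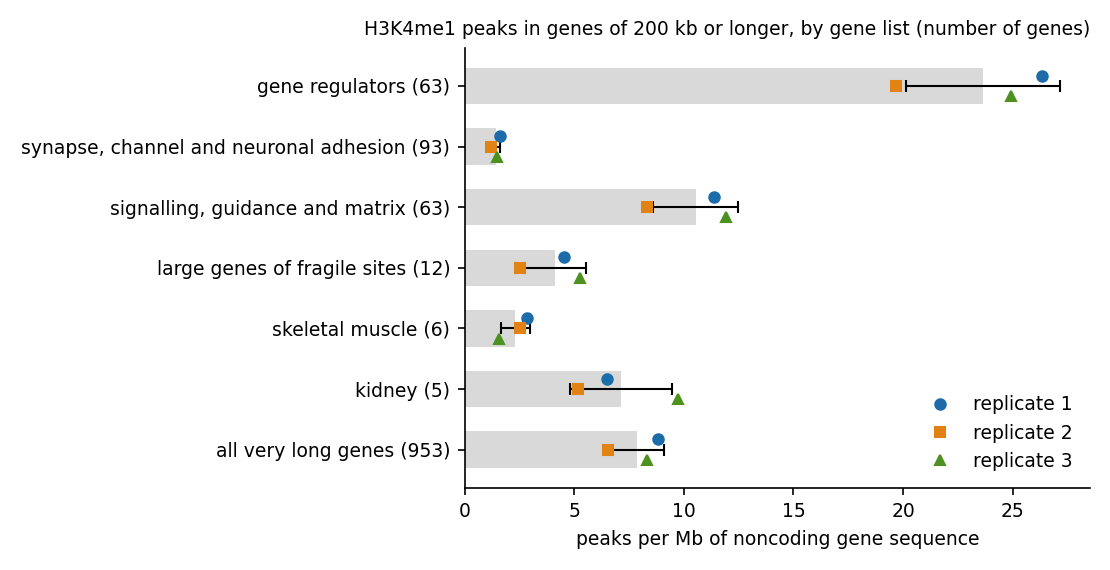
H3K4me1 peaks per Mb of gene sequence outside coding exons and start sites (horizontal axis) in genes of 200 kb or longer, for 6 gene lists and all very long genes, with the number of genes in brackets. Points are the 3 replicates, bars their mean and whiskers the SD, and the regulators at 23.7 peaks per Mb lie above all other lists while the synaptic genes at 1.42 lie lowest.

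Among the regulators, Auts2, which acts with Polycomb proteins in neural development, led with 29 members. It had 47, 33 and 39 own peaks in replicates 1, 2 and 3, its members covered 16.7% of its 1106 kb, and all 29 were nearer to a start of Auts2 than to one of any other gene. Nfib, a nuclear factor I gene of mesenchyme and hair follicles, held 17 members, with 23, 18 and 24 peaks, and 29.3% of the gene was covered. Its strongest member lay at percentiles 92.1, 91.7 and 91.1 of total signal among all shared regions in replicates 1, 2 and 3. Maml3, a coactivator of Notch signalling, held 16 members with 21, 19 and 18 peaks. Zfhx3, a large zinc finger and homeodomain factor, held 15 members with 24, 19 and 23 peaks, spread from 18.7 to 878 kb from its start. Rora, a nuclear receptor, also held 15 and had 20, 21 and 19 peaks. These genes had peaks in like number in the 3 replicates, and replicate 2, whose list is the shortest, was the lowest in all but Maml3 and Rora.

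Members were most dense in a few shorter regulators, with others of that size below the longer Nfib at 40.9 members per Mb. Tead1, a partner of Yap in Hippo signalling, held 12 members in 227 kb, or 52.7 per Mb. Glis1, a Krüppel-like zinc finger gene of 200 kb, held 10 members that together covered 48.3% of it, the highest coverage among the genes named here. Its strongest region lay at percentiles 98.0, 98.3 and 97.6. Prdm16, a zinc finger methyltransferase gene of craniofacial development, held 6 members in 321 kb, or 18.7 per Mb, with median percentiles of 93.9, 92.0 and 80.1. In Glis1 and Prdm16 the typical member, at 91.6, 91.4 and 82.4 in Glis1, was thus far above the median of members, which was 46.0, 43.6 and 52.3.

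Other regulators of comparable size were without a member. Foxp2, a forkhead gene of 541 kb, had 1, 0 and 5 eligible peaks in the 3 replicates. Zfpm2, a cofactor of GATA factors, had 0, 0 and 2 peaks, and Dach1, a retinal determination factor, had 0, 0 and 1. In each of these genes replicate 3 held the most peaks.

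Of the signalling and adhesion genes, Slit3, a secreted guidance ligand of Robo receptors, held 25 members with 34, 26 and 31 peaks. They covered 29.3% of its 587 kb, and 15 lay in intron 4. Tenm4, a teneurin of cell adhesion, held 19 members with 26, 21 and 23 peaks, the first of them 205 kb into the gene. Ptprg, a receptor tyrosine phosphatase, held 16 members with 22, 17 and 18 peaks. Itga9, an integrin subunit that binds tenascin, held 16 in 294 kb, or 54.4 per Mb. Igf1r, the receptor of insulin-like growth factors, held 13 with 18, 14 and 17 peaks. Without a member at the long end of this list were Ctnna3, an α-catenin of testis and heart, Gpc5, a glypican, and Cdh12, a neural cadherin. Ctnna3 had 0, 0 and 1 eligible peaks, Gpc5 had 0, 0 and 3, and Cdh12 had none. The record of Fgfr2, a receptor of fibroblast growth factors, held 31 members and is taken up below.

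In the synaptic list the largest count was 7, in Cacna2d3, an auxiliary subunit of calcium channels. Its peaks numbered 13, 12 and 15, and the members' median percentiles were 4.84, 12.3 and 59.7, low in replicates 1 and 2 and above the middle in replicate 3. Sorcs2, a sorting receptor for neurotrophins, held 5 members, Dlg2, a postsynaptic scaffold, and Cacna1c, a calcium channel, 4 each, and Kcnma1, a potassium channel, and Sdk2, an adhesion protein of the retina, 3 each. The 4 members of Dlg2 all lay 1706 to 1886 kb into its 1973 kb. Lsamp, Lrp1b and Csmd1, 3 long neuronal genes, held no member. Lrp1b and Csmd1 had no eligible peak in any replicate and Lsamp had 0, 0 and 1.

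Several genes outside the lists were also crowded. Rad51b, a gene of DNA repair, held 18 members with 25, 19 and 22 peaks, Dnm3, a dynamin, 17, Bcas3, a cytoskeletal and autophagy protein, 15, Smyd3, a lysine methyltransferase, 15, and Fto, an RNA demethylase, 15 with 22, 21 and 18 peaks. Tanc1, a postsynaptic scaffold that is also used outside the nervous system, reached 59.8 members per Mb, with 14 in 234 kb, and Cachd1, a calcium channel modulator, 47.5. The muscle list had its 3 members in Dysf, dysferlin of membrane repair. The large sarcomere genes Neb and Ttn had no eligible peak and Nebl had 0, 0 and 1. Sgcz and Sgcd, of the sarcoglycan complex, held no member.

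**Figure D2:**
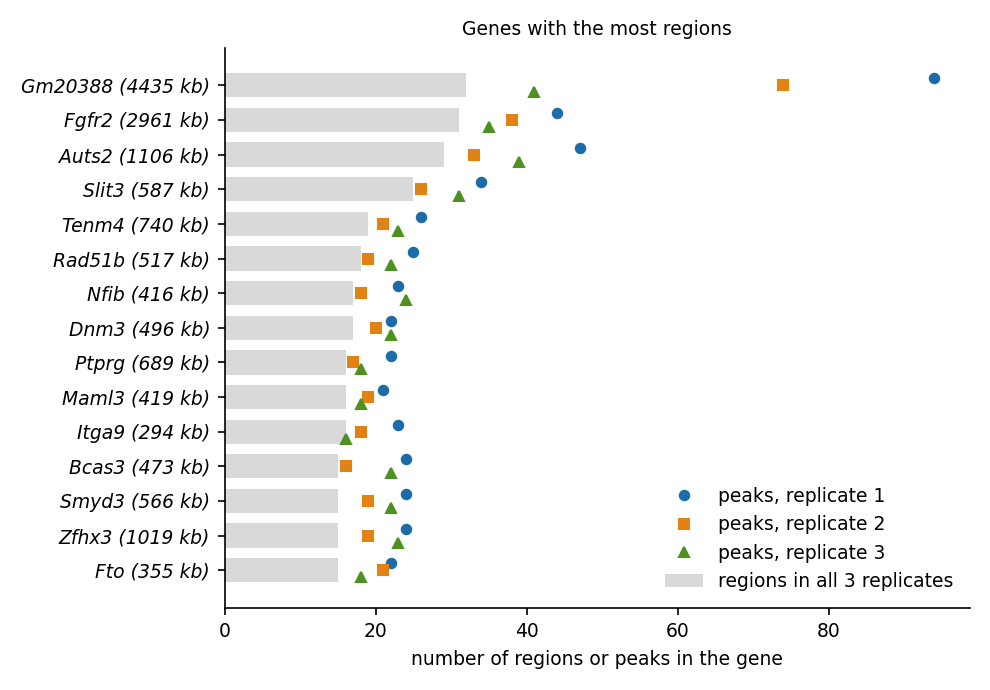
Number of H3K4me1 regions shared by all 3 replicates (bars) and of each replicate's own peaks (points) in the 15 very long genes with the most regions, with the length of the gene record in kb. Auts2 held 29 regions and 47, 33 and 39 peaks, and the spread between replicates was widest in the Gm20388 record, at 94, 74 and 41 peaks.

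The first and second counts in that plot need a reservation about the annotation. The record of Gm20388, a predicted gene, spans 4435 kb and encloses 71 other protein-coding genes, and that of Fgfr2 spans 2961 kb and encloses 29. They held 32 and 31 members, of which 31 and 24 were nearest to a start of another gene. In all, 10 very long records enclosed 10 or more coding genes, and 3 of them were hosts, with 64 members. Of these 64, 22 lay inside a shorter coding gene and 42 between such genes. Without these records 1907 members in 471 genes were left, a setting added after the data were seen.

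For 1407 members (71.4%) the nearest coding start belonged to the host gene, and for 564 (28.6%) to another gene. In 72 hosts every member was nearest to another gene. The share was 11.5% for members in regulators (43 of 375), 30% in signalling, guidance and matrix genes (73 of 243), 29.2% in synaptic genes (14 of 48) and 54.2% in genes of fragile sites (13 of 24). Of the 73 in signalling genes, 24 lay in the Fgfr2 record, which encloses 29 other coding genes and raises that share. The share of the available sequence that lies nearest to another gene's start was not worked out. Whether members favour the host or its neighbours beyond that share therefore cannot be told from these counts. Which gene a member acts on was not measured. Leaving out the records that enclose many genes, 508 members were nearest to 222 other genes, and 26 of these genes gathered 5 or more. The examples below, signals and transcription factors of the embryo first, were picked after the counts were seen and stand for no share of these genes.

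Tbx2, a T-box factor of limb and facial mesenchyme, was nearest to 10 of the 15 members of Bcas3. They lay 40.7 to 218 kb from its start, in the 3' part of Bcas3, all in intron 23, and their median percentiles were 62.9, 57.9 and 63.9. The strongest of them reached a mean percentile of 92.3 ± 3.47 (SD, n = 3). Smad7, an inhibitor of BMP and TGF-β signalling, was nearest to 11 members, 5 of the 6 in Dym, a Golgi protein gene on one side, and all 6 in Ctif, a translation factor gene on the other. Their medians were 81.5, 82.6 and 73.6, and the strongest, in Dym, was at 97.6, 98.0 and 98.7. Wnt11 was nearest to 7 of the 8 members of Uvrag, an autophagy gene, at 56.6 to 144 kb, with medians of 54.7, 48.1 and 83.8. Wnt5a, a Wnt ligand of outgrowth in limb and face, was nearest to 6 of the 12 members of Erc2, a presynaptic gene, at 65.5 to 224 kb.

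Runx2, the master factor of bone formation, was nearest to all 6 members of Supt3, a subunit of the SAGA complex, at 190 to 304 kb. Their median percentiles, 29.6, 36.0 and 42.2, were below those of members as a whole. Tcf7l2, a mediator of Wnt signalling, was nearest to 6 of the 8 members of Vti1a, a vesicle fusion gene, at 120 to 189 kb, with medians of 66.5, 75.9 and 56.0. Irx3, an Iroquois homeobox factor, was nearest to 5 of the 15 members of Fto, at 154 to 233 kb, with medians of 63.0, 61.4 and 63.4. Tgfb3, a TGF-β ligand of palate formation, was nearest to all 5 members of Ttll5, a tubulin modifying gene. Among the genes of fragile sites, Foxc1, a forkhead factor of neural crest and eye, was nearest to all 4 members of Gmds, at 154 to 229 kb. Maf was nearest to 3 of the 9 in Wwox, and Flrt3, a gene that lies inside Macrod2, to all 3 in Macrod2. The other fragile site genes Fhit, Immp2l and Naaladl2 held no member, with 2, 0 and 4, 2, 0 and 4, and no eligible peaks.

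**Figure D3:**
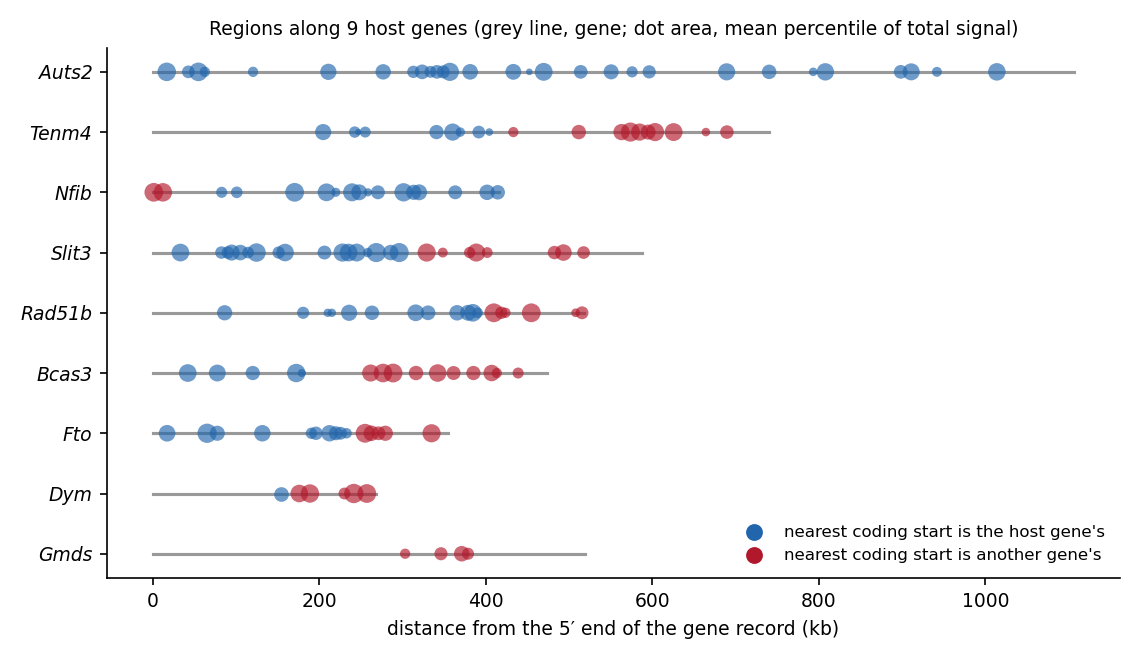
Members along 9 host genes, drawn by the distance of their midpoint from the 5′ end of the gene record in kb (horizontal axis), where the grey line is the gene and the area of a dot grows with the mean percentile of total signal. Blue dots are nearest to a coding start of the host and red dots to that of another gene: all 29 in Auts2 are blue, the 10 red dots in Bcas3 are nearest to Tbx2, and all 4 in Gmds are red.

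Genes of other kinds were frequent neighbours as well, and those given here are again examples. Nars2, an asparaginyl-tRNA synthetase of mitochondria, was nearest to 10 of the 19 members of Tenm4, Pitpnb, a lipid transfer protein, to 9 in Ttc28, Kif26b, a kinesin, to 8 in Smyd3, and Pank3, a pantothenate kinase, to 8 in Slit3. Zfp36l1, an RNA-binding protein that destabilises mRNAs, was nearest to 6 of the 18 in Rad51b, at 300.2 to 406 kb.

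Members in Prdm16, Zfp423, Dym and Glis1 were among the strongest by total signal, the pileup summed over the bases of the peak. This ranking does not cover the 50 regions of 15 kb or longer that met the rest of the rule. The Prdm16 region, chr4:154562836-154577653 in intron 1, had total signals of 428061, 534126 and 257993 pileup units and ranked at percentiles 98.8, 98.8 and 97.5. The Zfp423 region, chr8:87829207-87839325 in intron 3 of this zinc finger gene of neural and fat precursors, had 361499, 497251 and 287386 units, at percentiles 98.2, 98.6 and 98.1. The Glis1 region, in intron 4, had 346084, 472704 and 259580 units. The regions of Prdm16, Zfp423 and Glis1 lay near the top of the shared regions in every replicate, and replicate 3 had the lowest units in each. Members in Ankrd44, Vps13d, Snd1, Smyd3 and Foxn3 followed, with mean percentiles of 97.7, 97.6, 97.5, 97.2 and 97.1. Those of Prdm16, Zfp423, Ankrd44 and Foxn3 were nearest to a start of the host, and those of Dym, Glis1, Vps13d, Snd1 and Smyd3 to that of another gene.

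Over all members, total signal had a median of 42445 pileup units in replicate 1 (14404 to 428061), 52235 in replicate 2 (24253 to 534126) and 48904 in replicate 3 (19343 to 370144). The maximum pileup had medians of 47, 53 and 45. Units are not scaled to depth, and percentiles among all 8840 shared regions were therefore compared. Members had median percentiles of 46.0, 43.6 and 52.3, and the 2002 regions found in the same way inside genes under 200 kb had 52.1, 51.1 and 46.3. Members differed by -6.15 and -7.43 in replicates 1 and 2 and by 6.0 in replicate 3, a mean difference of -2.53 ± 7.41 (SD, n = 3, exact two-sided sign-flip permutation p = 0.5). The replicates thus did not share a direction, and when regions were chosen from replicates 1 and 2 alone, and ranked among those, the difference was 0.171.

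Base composition moved with this difference. Members had a median GC content of 45.6%, against 47.4% in shorter genes, and 49.7% of them were in the lowest of 3 equal classes of GC among shared regions, against 29.4% in shorter genes. Distant intergenic regions, more than 50 kb from any coding gene, resembled members in this, with a median GC content of 45.9%. Their median percentiles of total signal, 42.1, 40.6 and 50.4, were also highest in replicate 3. Within members, the median log2 ratio of total signal of replicate 3 to replicate 2 was 0.67, 0.11 and -0.42 in the lowest, middle and highest class of GC, while that of replicate 1 to replicate 2 was 0.03, -0.01 and -0.06. Replicate 3 was thus the one that differed with GC. Within classes the replicates took the same sign. In the lowest class members exceeded regions in shorter genes by 2.05, 0.69 and 5.25 percentiles, in the middle class by 0.67, 0.73 and 1.94, and in the highest class they differed by -4.93, -7.04 and -4.18. The means were 2.66 ± 2.34, 1.11 ± 0.716 and -5.38 ± 1.48 (SD, n = 3), each with an exact permutation p of 0.25. The classes were formed after the difference between replicates was seen, and the part of base composition in it was not tested further.

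**Figure D4:**
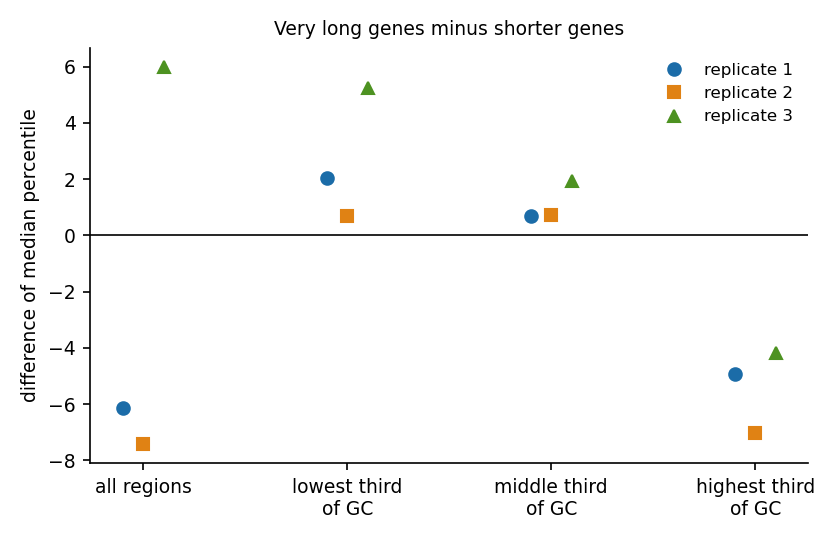
Median percentile of total signal of members minus that of regions in genes under 200 kb (vertical axis, percentile points) in each replicate, over all regions and within 3 equal classes of GC content. Over all regions replicate 3 lies at 6.0 and the others below 0, and within each class the 3 replicates share a sign.

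Each replicate's ranking of members resembled the others'. Spearman's correlation of total signal over the 1971 members was 0.876 between replicates 1 and 2, 0.730 between 1 and 3 and 0.689 between 2 and 3. The mean was 0.765 in members and 0.778 both in shorter genes and in distant intergenic regions. These are descriptions across regions of shared sequence and length, and the correlation was 0.637 on average when signal was divided by peak length. The highest pileups of all 3 replicates lay within 200 bp of each other in 654 members (33.2%) and within 50 bp in 252 (12.8%), with a median spread of 507 bp. The share within 200 bp was much alike elsewhere, at 32.6% in shorter genes and 36.4% in distant intergenic regions. In 105 members (5.33%) the highest pileups lay within 5 bp, as in the Tead1, Prkce and Foxn3 sequences above. A single peak made up the region in every replicate for 1750 members (88.8%). Recovery in all 3 replicates was 48.5% of the 4062 regions found at such places in any replicate, against 43.5% in shorter genes and 46.4% of all regions.

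By each replicate's own peaks, very long genes held 3560, 2632 and 3350 peaks, or 21.4, 20.5 and 24.2% of all peaks. Per Mb of sequence outside coding exons and start sites, with sequence that genes share counted only once, this was 8.92, 6.6 and 8.40, a mean of 7.97 ± 1.22 (SD, n = 3). Genes under 200 kb had 8.57, 6.16 and 6.54, a mean of 7.09 ± 1.3, and sequence more than 50 kb from any coding gene had 3.41, 2.46 and 3.44, a mean of 3.10 ± 0.559. The difference from shorter genes, 0.884 ± 0.845 peaks per Mb, was positive in all 3 replicates but barely larger than its SD. With 300 kb as the limit of a very long gene it turned to -1.34 ± 0.933, with 150 kb it was 1.82 ± 0.795, and without replicate 3 it was 0.397. The difference from distant intergenic sequence was 4.87 ± 0.690. Both had an exact permutation p of 0.25. Density fell with gene length, from 12.3 ± 1.66 peaks per Mb in genes of 200 to 300 kb to 9.02 ± 1.5 up to 500 kb, 5.62 ± 1.00 up to 1000 kb and 3.63 ± 0.642 in longer genes (SD, n = 3). The share of genes with a member fell less, at 54.4, 47.7, 44.2 and 43.6%.

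Members lay along the whole of their genes. Crowding at the start cannot be judged, because whole regions that touched a coding start with 1 kb on each side were left out. Only that 1 kb on each side was taken off the available sequence, while members had a median length of 4871 bp. With each host gene cut into 5 equal parts in the direction of transcription, the parts held 18.3, 19.1, 19, 21.7 and 21.8% of members, where even spacing over the available sequence of the same genes would give 19.8, 20.2, 20.2, 20.1 and 19.8%. By the highest pileup of each replicate the first part held 18.2, 18.3 and 18.2%. The median distance from the 5' end of the gene record was 180 kb (quartiles 94.8 and 304 kb), against 176 kb for the available sequence. Within 50 kb of the 5' end lay 12.4% of members and 14.0% of the sequence, and 212 members were more than 500 kb into the gene. The distance to the nearest coding start of the host was 108.9 kb, and to the nearest coding start of any gene 82.8 kb. A 5' end can belong to a noncoding transcript: the Nfib region 1.12 kb from the end of its record was 155 kb from the nearest coding start, that of Zdhhc21.

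By gene structure, 1957 members (99.3%) were centred outside all exons of coding transcripts and 14 in untranslated exons. No intron of the principal transcript of the host held 185 members (9.39%), because gene records can reach beyond that transcript. The first intron of the principal transcript held 454 (23.0%), against 19.9% of the sequence of the same genes. Neighbouring members of one gene lay a median of 25.1 kb apart (quartiles 12.7 and 54.2 kb, 1497 pairs). Start sites of noncoding transcripts overlapped 102 members (5.18%), against 7.04% of regions in shorter genes and 12.2% of distant intergenic regions. The median length was 4871 bp, against 5054.5 bp in shorter genes and 4543 bp in distant intergenic sequence. Repeat-masked bases made up a median of 15.3%. At the limit of 15000 bp, the members just under it were in Sh3pxd2a (14928 bp), Prkce (14919 bp) and Asap1 (14834 bp), and the regions just over it in Farp1 (15042 bp), Gli2 (15052 bp) and Zmiz1 (15380 bp). In total 50 longer regions met the rest of the rule. At the limit of 200 kb, Pcbp3, Umad1 and Glis1 were just over it with 1, 1 and 10 members, and Clec16a, Bckdhb and Svil just under it with 5, 3 and 4 regions of the same kind.

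All 14 motifs were searched on both strands in the 300 bp around each replicate's highest pileup. They were homeobox core TAATTA, E-box CAGCTG, Twist E-box CATATG, TCF/LEF CTTTGAT, SOX ACAATGG, TEAD GGAATG, NFI TTGGCA, AP-2 GCCNNNGGC, AP-1 TGANTCA, MEIS TGACAG, GLI GACCACCCA, CTCF core AGGGGGC, forkhead TGTTTAC and RUNX TGTGGTT. None contains the letters of another. The AP-2 motif, of factors that act in facial ectoderm and neural crest, was in 11.8, 11.7 and 9.49% of the windows of members, a mean of 11 ± 1.32% (SD, n = 3), against 4.74% of windows 2000 bp outside the members, a ratio of 2.32. The E-box CAGCTG was in 23.4, 23.1 and 22.4%, against 13.5% outside, a ratio of 1.70. The homeobox core and the Twist E-box were less frequent than outside, at 6.21 ± 1.80% against 8.68% and 5.46 ± 0.853% against 8.83%. Centres of members were richer in GC, at 50.5, 50.9 and 47.6% against 44.2% outside, and the part of base composition in these ratios was not tested. Replicate 3, with the lowest GC, had the lowest share of AP-2 and the highest of the homeobox core.

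The 2 motifs most frequent relative to sequence outside differed little from regions in shorter genes. The differences were 0.320 ± 0.301 percentage points for AP-2 and -0.344 ± 1.60 for CAGCTG (SD of the 3 differences). The AP-2 motif was in 10.7% of the windows in shorter genes and 11.9% of those of all shared regions, and CAGCTG in 23.3% of both. The homeobox core had the widest gap, at 6.21 ± 1.80% in members against 4.43% in shorter genes, a difference of 1.78 ± 0.927 (SD, n = 3). RUNX was next, at 7.31, 7.91 and 8.07% against a mean of 6.26% in shorter genes and 6.64% in all regions, a difference of 1.5 ± 0.628 (SD, n = 3). SOX was at 3.81% against 2.98% in shorter genes, a difference of 0.825 ± 0.358, and at 3.76% in all regions. These 3 differences from shorter genes were positive in every replicate, as were those of AP-2, the Twist E-box (0.684 ± 0.144) and TCF/LEF (0.352 ± 0.383). Against distant intergenic regions the mean difference was negative for SOX (-0.499), the Twist E-box (-0.993), TCF/LEF (-0.166) and AP-2 (-0.184). It was positive there for the homeobox core (0.641) and RUNX (1.14). The CTCF core was less frequent, at 4.08 ± 0.279% against 5.14% and 5.71%. No motif could pass a test in this design, as all 14 had an exact permutation p of at least 0.25 and an adjusted p (Benjamini-Hochberg over the motifs) of at least 0.5. GC in the same windows was lower in members by a mean of -1.59 ± 0.113 percentage points (SD, n = 3) than in shorter genes, also with an exact permutation p of 0.25.

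**Figure D5:**
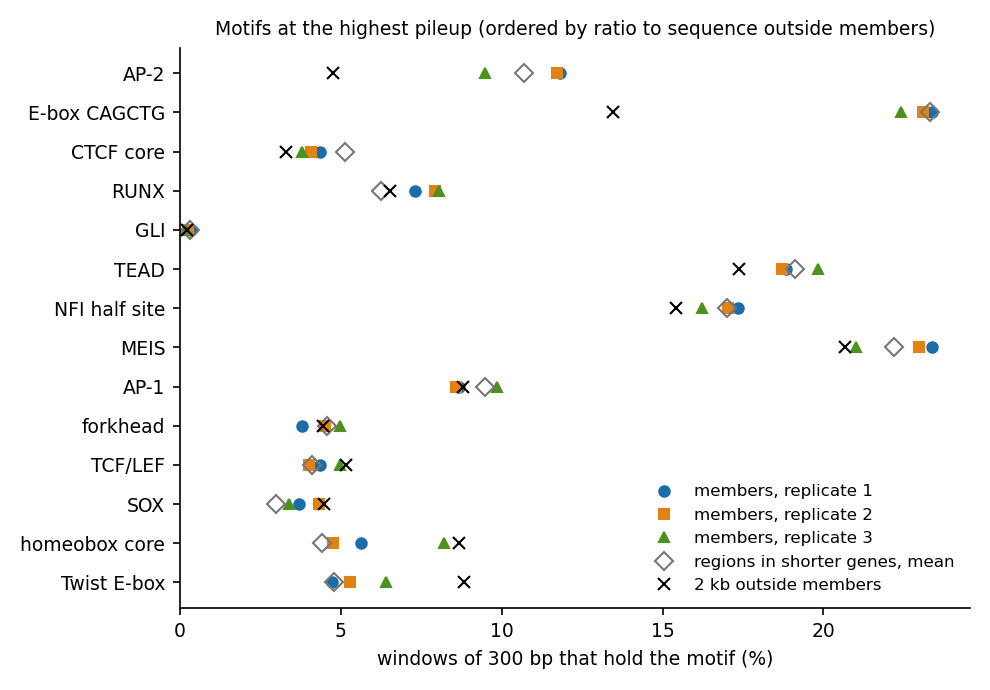
Share of 300 bp windows around the highest pileup that hold each of 14 motifs (horizontal axis, %), for members in each replicate, for regions in shorter genes (diamond, mean of replicates) and for windows 2000 bp outside members (cross). Motifs are ordered by the ratio of members to outside, from AP-2 at 2.32 down to the Twist E-box, and for RUNX and the homeobox core the diamond lies left of all 3 members' points.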

How the data were processed

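H3K4me1 CUT&Tag peak lists of 3 whisker pads were analysed, and the IgG samples were not analysed here. Per the submitters' notes and the study's methods, paired-end reads were mapped to mm10 with Bowtie2 2.3, handled with SAMtools 0.1.19 and bedtools, and peaks were called in each replicate without IgG by SEACR 1.3 in stringent mode, keeping the top 1% of signal blocks. The treatment of duplicates is not given in the sources used here. The deposited signal values are the authors' total and maximum fragment pileup per peak, in whole numbers not scaled to depth. Since a fixed share of blocks was kept, peak numbers follow the number of blocks and are no measure of enrichment.

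Regions and genes were taken from GENCODE release 21 for mouse, with start sites of its basic set of coding transcripts (39515 positions). A region in several very long genes was given to the shortest. Sequence came from GRCm38. Densities count sequence outside coding exons, gaps and start sites with 1 kb on each side (399 Mb in very long genes, 527 Mb in shorter ones). Whole peaks that touched these start sites were left out, so more sequence near starts was closed to peaks than was taken off. The effect on densities was not tested. Replicates were compared by the exact two-sided sign-flip permutation test (scipy 1.17.1, Python 3.11.15), threshold 0.05. Scripts were tested on simulated data. The genes named were the 15 with the most members, the 5 with the most per Mb among genes of 3 or more, the hosts of the 10 strongest, up to 6 per list with the most and the 3 longest with none, and those next to each limit. Members, the 6 lists (318 genes) and motifs were chosen with earlier results of these data known. A gene that this rule names is not reported here.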

Additional observations from a re-analysis of the deposited data

How the results depend on the processing

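Of 114 alternative values, 12 changed sign. No test passed 0.05 in any setting, so a kept direction says little of size. With the stronger 50% of each list, there were 931 members, and the share of genes with a member was 79.4% for regulators, 12.9% for synaptic, 38.1% for signalling, 41.7% for fragile site, 40% for kidney and 0% for muscle genes, where 331 of all 953 very long genes held one. With limits of 150 and 300 kb the median distance from the gene start was 147 and 249 kb, and at 300 kb there were 1208 members in 251 genes and the density difference from shorter genes, reported as 0.884, was -1.34 peaks per Mb, against 1.82 at 150 kb and 0.451 with the stronger 50%. The distance was 108.9 kb from the nearest coding start of the host. The first part of the gene held 18.2% by the highest pileup. Spearman's correlation of signal between replicates was 0.637 per base of peak. Leaving out 1 replicate gave density differences of 0.397 (without replicate 3) to 1.15, distances of 179 to 183 kb, first-part shares of 18.2 to 18.7%, fragile site shares of 58.3 to 75% and percentile differences from shorter genes of -2.63 to 0.171. That difference was -0.558 by maximum signal. Settings chosen after seeing the data were the comprehensive start sites, gene length, the GC classes, whose 2.66 and 1.11 turned the sign of the percentile difference, and the removal of records that enclose 10 or more genes, with 176 kb and 18.4%. Between window sizes of 200, 300 and 500 bp, 5 motifs turned sign against shorter genes: MEIS at -0.213 (200 bp) and -0.582 (500 bp), GLI at 0.0359 and 0.0747, forkhead at 0.0273 and 0.505, and at 500 bp NFI at 0.731 and AP-2 at -0.450 percentage points. At 500 bp the CTCF core moved from -1.07 to -2.71, RUNX from 1.5 to 2.85 and TEAD to -0.980. The cause was not tested.

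No paired analysis was possible because only 1 group, H3K4me1, was analysed here and the numbers it shares are with IgG. With 3 replicates no exact test can pass 0.05, and without read numbers the depth behind a missing peak is unknown.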

Other observations

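The highest pileup of any member was found in Chl1, a neural adhesion gene. This region of 251 bp, the shortest of all members, reached maximum pileups of 1326, 497 and 542 in replicates 1, 2 and 3, where the medians over members were 47, 53 and 45. Its highest pileups lay within 3 bp of each other, its GC content was 33.9% and 27.1% of its bases were repeat-masked. By total signal it did not stand out, at percentiles 85.2, 38.2 and 53.7 in replicates 1, 2 and 3. The region was not compared with IgG.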
